A study of Mus musculus with 2 samples.

Results

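The vesicular transporters and transmitter synthesis genes comprised 6 genes of the 16301 found in at least 3 kept cells of the series. They were taken by name as genes that define the transmitter of a neuron, and no measured value is part of the rule. Gad1 and Gad2 encode the enzymes that make GABA from glutamate. Slc32a1 encodes VGAT, which loads GABA and glycine into vesicles, and Slc6a5 encodes GlyT2, the plasma membrane carrier that supplies glycine to glycinergic terminals. Slc17a6 and Slc17a7 encode VGLUT2 and VGLUT1, which load glutamate into vesicles.

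Single-cell RNA molecules had been counted in Sox1-GFP+ cells of the mouse tail (1 library) and of the mouse brain (1 library). Both groups carried the same reporter, a GFP knock-in at the neuroepithelial gene Sox1, and the labels name no treatment besides trypsin dissociation and sorting of GFP+ cells. Per the study the tails were postnatal and the brains adult. How many animals went into a library is not given in the sources used here. Tissue, age and library therefore cannot be told apart, and no test between groups was possible. All values below describe these 2 libraries, and their 95% intervals cover counting error only.

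As background, most neurons of the spinal cord and forebrain commit early to a single fast transmitter. GABA and glycine neurons share the vesicular transporter VGAT, whereas glutamate neurons use a VGLUT protein and lack glutamate decarboxylase, so both sets usually exclude each other. Neurons that contact the cerebrospinal fluid around the spinal central canal are GABAergic and carry the channel gene Pkd2l1. Robo3 is a guidance receptor of young commissural neurons, and Dlx1 is a homeobox factor of forebrain GABAergic lineages.

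The tail library kept 1964 of 2469 barcodes (79.5%) and the brain library 7988 of 12111 (66.0%), with 1282.5 and 696 molecules in the median cell. Of these, 260 tail cells (13.2%) and 1653 brain cells (20.7%) had at least 1 molecule of Stmn2 or Tubb3, which encode a growth-associated protein and the neuronal tubulin. They are called gated cells here, and the median was 1467 molecules for the tail against 686 for the brain. At least 3 of 10 neuronal markers were found in 90.0% of the gated tail cells and 90.9% of the gated brain cells. Both gate genes are among these 10, so every gated cell held at least 1 of them by definition. At least 3 of 8 markers of another cell class were found in 13 gated tail cells, 9 of them with fibroblast markers, and in 266 gated brain cells, mostly with astroglial or cycling markers. Sox1 itself was found in 28.8% of the gated tail cells and 14.3% of the gated brain cells. Of the cell indices, 18 occurred in both libraries among kept cells.

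All members lie on chromosomes 2 and 7 of GRCm38 as protein-coding genes of GENCODE vM21. Gad1 (ENSMUSG00000070880) is at chr2:70553072-70602014, Gad2 (ENSMUSG00000026787) at chr2:22622205-22693874 and Slc32a1 (ENSMUSG00000037771) at chr2:158610767-158615748. Slc6a5 (ENSMUSG00000039728) is at chr7:49910146-49963856, Slc17a6 (ENSMUSG00000030500) at chr7:51622006-51671119 and Slc17a7 (ENSMUSG00000070570) at chr7:45163949-45176142. All 6 are on the plus strand. The antisense genes Gad1os and Gm14205 overlap Gad1 and Slc32a1, but held 1 molecule per library and 0 molecules in kept cells. The RefSeq promoter set for GRCm38.p6 held 8 windows for the 6 genes. The 250 bases before the RefSeq start are printed for the 3 genes that shared cells in the tail (Gad1, Gad2, Slc32a1) and for Slc17a6, which did not share cells with them there. Capitals mark matches on either strand to any of 3 short motifs. The first is CAGATG, an E-box form bound by proneural factors. A further motif is the core bound by homeodomain proteins such as the Dlx factors, spelled TAATTA, which reads alike on both strands. The last is a form bound by GATA factors, spelled AGATAA. Each was searched with its reverse complement, and no match overlapped another in the printed windows. The windows are chr2:70561879-70562128 for Gad1, chr2:22622077-22622326 for Gad2, chr2:158610508-158610757 for Slc32a1 and chr7:51621580-51621829 for the first of 2 Slc17a6 starts, all on the plus strand.
Gad1: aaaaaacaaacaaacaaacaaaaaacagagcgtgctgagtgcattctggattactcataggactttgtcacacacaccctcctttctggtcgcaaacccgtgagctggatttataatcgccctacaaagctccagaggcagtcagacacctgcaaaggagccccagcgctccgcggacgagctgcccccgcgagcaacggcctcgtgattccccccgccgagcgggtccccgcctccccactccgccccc
Gad2: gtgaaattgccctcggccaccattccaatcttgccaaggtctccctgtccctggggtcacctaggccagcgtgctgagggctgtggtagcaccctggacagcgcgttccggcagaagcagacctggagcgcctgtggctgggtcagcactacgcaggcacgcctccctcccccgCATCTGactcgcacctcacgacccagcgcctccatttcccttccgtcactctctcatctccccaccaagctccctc
Slc32a1: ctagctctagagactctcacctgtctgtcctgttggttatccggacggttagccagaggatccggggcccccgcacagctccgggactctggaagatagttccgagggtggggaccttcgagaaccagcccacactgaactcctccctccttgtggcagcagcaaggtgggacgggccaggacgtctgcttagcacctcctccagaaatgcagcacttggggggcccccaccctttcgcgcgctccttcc
Slc17a6: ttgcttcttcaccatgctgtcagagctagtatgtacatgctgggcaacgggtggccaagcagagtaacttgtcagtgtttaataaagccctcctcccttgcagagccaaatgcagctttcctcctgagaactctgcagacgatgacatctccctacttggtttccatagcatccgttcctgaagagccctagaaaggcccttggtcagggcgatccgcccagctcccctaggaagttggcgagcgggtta

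Of these 4 windows, only that of Gad2 held a match, a reverse-strand E-box (CATCTG as printed) whose first base lies 76 bases before the start. The window of the second Slc17a6 start, chr7:51624387-51624636, is not printed and held a CAGATG 205 bases and a TAATTA 81 bases before that start. Over all 8 member windows, TAATTA was found in 1, CAGATG in 3 (1 each for Gad2, Slc17a6 and Slc6a5) and AGATAA in 0. Over all 32851 windows of this length in the set, the shares were 4.84%, 14.4% and 9.99%. The Gad1 window lies inside the GENCODE gene, which has a further upstream start, and the Gad2 window, with its match, also runs into its GENCODE gene. A match is a description of letters, and its absence from 250 bases says nothing of distant elements.

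In the gated cells, the genes for GABA synthesis were found in both libraries, at somewhat lower levels in the tail, whereas those for glycine supply and VGLUT2 were higher in the tail. Gad1 had 179 molecules in tail cells (434 CPM, molecules per 1000000 of the gated total), against 874 in brain cells (642 CPM). The tail level was 0.677 of the brain level (95% interval 0.573 to 0.795). Gad2 had 91 and 388 molecules (221 and 285 CPM), a ratio of 0.775 (0.610 to 0.976). Both decarboxylase genes were thus somewhat lower per molecule in the gated tail cells than in the gated brain cells. This depended on the gate. With cells that had both Stmn2 and Tubb3 the Gad2 ratio was 1.02 (0.743 to 1.38) and the Gad1 ratio 0.874 (0.696 to 1.09).

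The vesicular GABA and glycine transporter gene Slc32a1 had 46 molecules in tail cells (112 CPM) against 100 in brain cells (73.4 CPM), and the ratio was 1.52 (1.05 to 2.18). This interval lay close to 1, and it included 1 when gated cells with markers of another class were left out (lower bound 0.981) and with TMM scaling (0.946). Slc6a5 had 19 molecules in 15 gated tail cells (46.1 CPM) and 0 in 1653 gated brain cells. Taking 3 molecules as the limit of a count of 0, the tail level was at least 20.9-fold higher, and over all kept cells, with 23 and 0 molecules, at least 17.5-fold higher. The limit rests on few molecules, and it was at least 4.26-fold with a gate of 3 molecules or more.

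Slc17a6 had 63 molecules in 27 gated tail cells (153 CPM) and 13 molecules in 11 gated brain cells (9.55 CPM). Its tail level was 16.0-fold higher (8.72 to 31.7). It was the only one of the 4 members with at least 50 molecules over both libraries whose whole interval lay beyond 4-fold. Among all 5909 genes with as many molecules, 4.21% passed this rule, 2.3% with the higher level in the tail and 1.91% with the higher level in the brain. With cells that had both gate genes the Slc17a6 ratio was 5.68 (1.95 to 17.6), which no longer lay wholly beyond 4-fold. Slc17a7 was found in 0 gated tail cells and in 1 gated brain cell with 1 molecule.

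Over all kept cells the order was the same. Gad1 had 230 tail and 1035 brain molecules (81.6 and 161 CPM), Gad2 had 126 and 451 (44.7 and 70.2 CPM), and Slc32a1 had 58 and 110 (20.6 and 17.1 CPM, ratio 1.20, 0.859 to 1.67). Slc17a6 had 78 and 18 (27.7 and 2.80 CPM), a ratio of 9.88 (5.86 to 17.5), where 11% of 11347 genes passed the 4-fold rule (6.35% higher in the tail, 4.66% in the brain). Fewer cells of a type and less RNA per cell cannot be told apart in these sums, which the gate narrows but does not remove.

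**Figure D1:**
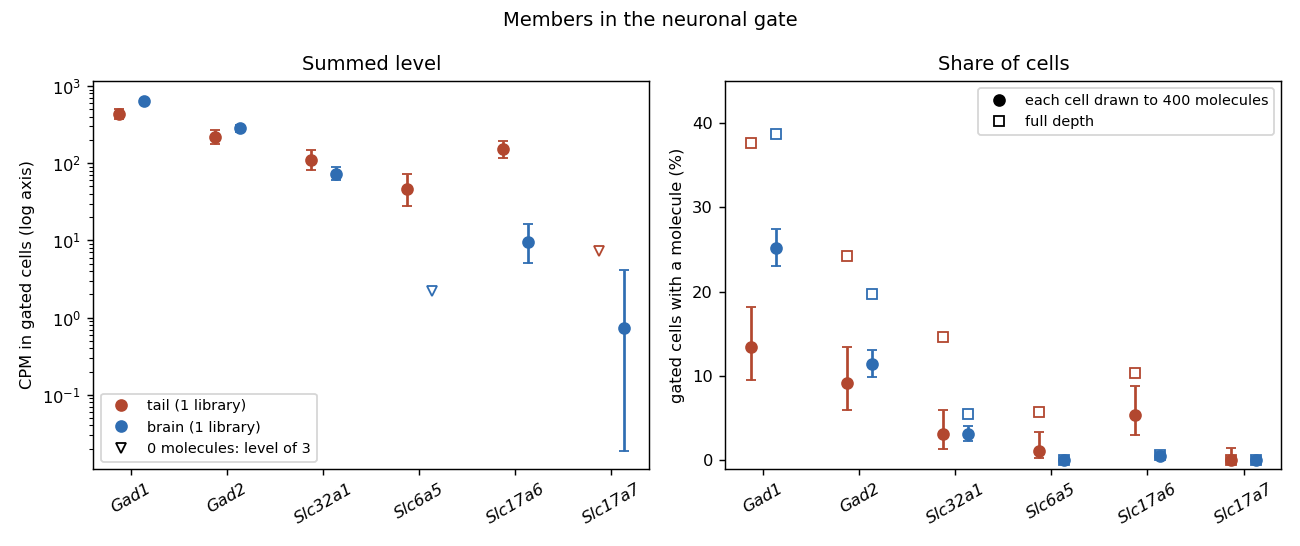
Members in gated cells of the tail (red) and the brain (blue), 1 library each. Left, CPM on a log axis with exact 95% Poisson intervals, where open triangles stand at the level of 3 molecules for members with 0. Right, percentage of gated cells with a molecule, with each cell drawn down to 400 molecules (dots with exact 95% intervals) and at full depth (open squares). Slc17a6 and Slc6a5 stand apart in the tail (153 and 46.1 CPM). Levels are to be compared within a gene and not between genes.

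The share of gated cells with a molecule depended on depth, and the tail cells were deeper. Gad1 was found in 98 of 260 tail cells (37.7%) and in 640 of 1653 brain cells (38.7%), but in 13.5% (9.56 to 18.2) and 25.2% (23.0 to 27.4) when each cell was drawn down to 400 molecules. At equal depth Gad1 therefore had the lower share in the tail, the same direction as its CPM. The gate was set at full depth, before this draw. Gad2 was found in 24.2% and 19.8% at full depth and in 9.23% and 11.4% at equal depth, where the intervals overlapped. Slc32a1 was found in 14.6% and 5.51% at full depth, and in 3.08% and 3.09% at equal depth. Slc17a6 was found in 10.4% and 0.665% at full depth and in 5.38% (2.97 to 8.87) and 0.460% (0.185 to 0.945) at equal depth, so that its difference remained.

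The members' molecules were concentrated in gated cells. Gated cells held 14.6% of all kept tail molecules but 77.8% of the Gad1, 72.2% of the Gad2, 79.3% of the Slc32a1, 82.6% of the Slc6a5 and 80.8% of the Slc17a6 molecules. With cells that had at least 3 of 10 neuronal markers added, these shares ran from 92.6% to 100%. In the brain, gated cells held 21.2% of all molecules, and 84.4% of the Gad1, 86.0% of the Gad2, 90.9% of the Slc32a1 and 72.2% of the Slc17a6 molecules. Free RNA gives a low share in cells that should lack a gene, and that share was small. Among ungated tail cells with at least 3 astroglial, ependymal, fibroblast or keratinocyte markers (150, 186, 172 and 81 cells), the only member molecules were of Slc17a7, in 1 fibroblast-marker cell. Gad1 was found in 1 of 18 ungated tail cells with markers of oligodendrocyte precursors (5.56%). Among 5830 ungated brain cells with astroglial markers (median 705 molecules), Gad1 was found in 24 (0.412%), Gad2 in 11 (0.189%), Slc17a6 in 1 (0.0172%) and Slc17a7 in 4 (0.0686%). These 4 were among only 6 kept brain cells with Slc17a7 (0.0751%), too few to describe further. Among 72 ungated brain cells with cycling markers, Gad1 was found in 10 (13.9%), Gad2 in 3 and Slc32a1 in 2. Slc17a6 was found in 1 of 26 ungated brain cells with oligodendrocyte markers (3.85%).

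The central comparison was of co-detection and exclusion. Cells with Gad1, Gad2, Slc32a1 or Slc6a5 and no VGLUT gene are called inhibitory-side, and cells with Slc17a6 or Slc17a7 and none of those 4 glutamate-side. In the tail, 125 of 260 gated cells (48.1%, 41.9 to 54.3) were inhibitory-side, 27 (10.4%, 6.96 to 14.7) were glutamate-side and 108 (41.5%) had no member. No tail cell had both. The 0 of 152 member-positive gated cells allows a share of up to 1.97%, and the 0 of 27 with Slc17a6 allows up to 11.1%. Such limits are for cells in which molecules of both sides are detected, and do not limit the share that expresses both. Nor did any of the 1964 kept tail cells have both, with 178 inhibitory-side and 41 glutamate-side cells among them. Co-detection of the sides was thus not seen in the tail at this depth. Median molecules were 1579 in inhibitory-side and 1380 in glutamate-side gated cells.

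In the brain, 861 of 1653 gated cells (52.1%, 49.6 to 54.5) were inhibitory-side, 10 (0.605%, 0.290 to 1.11) were glutamate-side, 2 (0.121%) had both and 780 (47.2%) had none. Among cells with any member, the glutamate side made up 17.8% (12.04 to 24.8) in the tail and 1.15% (0.551 to 2.10) in the brain. At equal depth the inhibitory side was 21.9% (17.0 to 27.5) of gated tail cells and 35.3% (32.9 to 37.8) of gated brain cells, lower in the tail with intervals apart. The glutamate shares of cells with any member were then 19.7% (14 of 71 cells) and 1.47% (8 of 546 cells). The gate had been set at full depth, before this draw. After it, Stmn2 was left in 23.1% of the gated tail and 51.8% of the gated brain cells, and Tubb3 in 38.1% and 51.6%. With both gate genes or at least 3 gate molecules asked, the full-depth inhibitory share was higher in the tail, as given below. The 2 brain cells with both had 1 molecule each of Gad1 and Slc17a6, held 1510 and 2972 molecules in all against a median of 686, and were not called doublets by Scrublet. With 2 molecules asked of a member, the tail had 64 inhibitory-side, 17 glutamate-side and 0 double cells, and the brain had 235, 2 and 0.

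**Figure D2:**
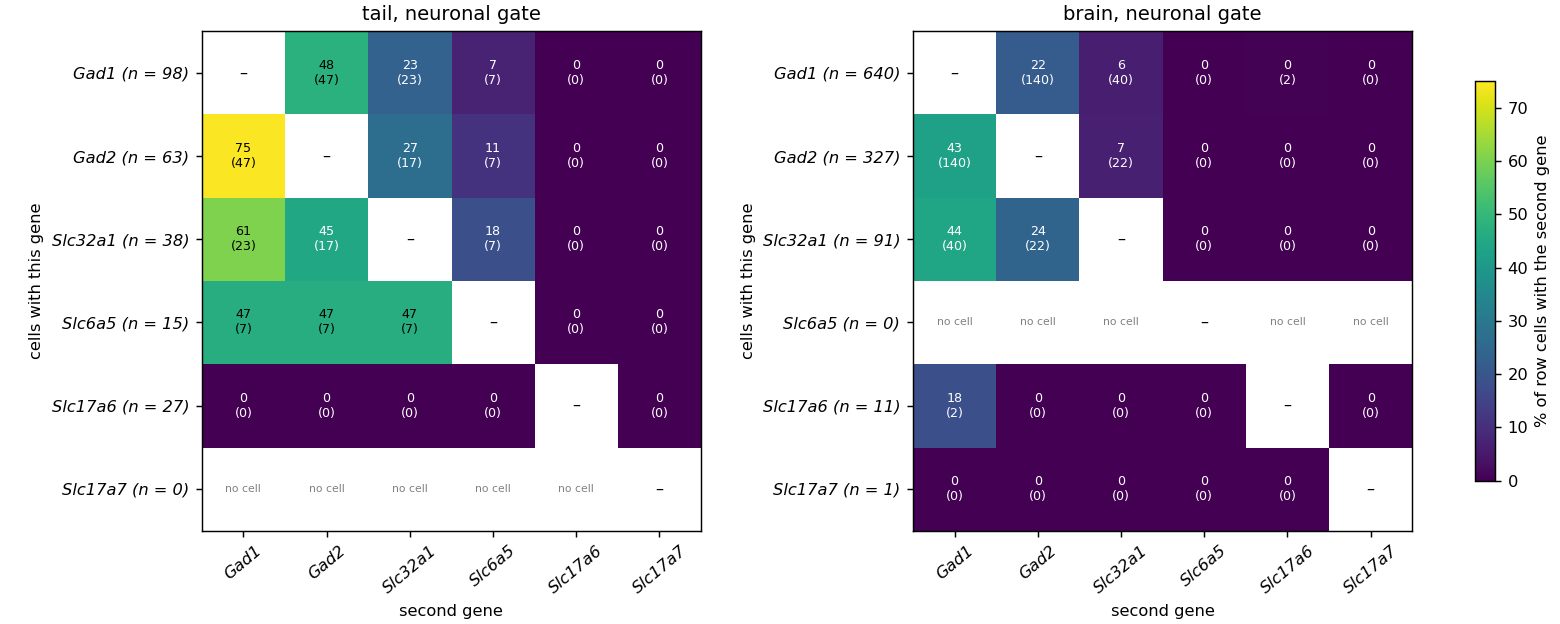
Percentage of gated cells with the row gene that also had the column gene, with the number of cells in brackets, in the tail (left) and the brain (right). The number of cells with each row gene stands beside its name. In the tail, Gad1, Gad2, Slc32a1 and Slc6a5 overlap and all 27 Slc17a6 cells lack them, while in the brain 2 of 11 Slc17a6 cells had Gad1.

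Co-detection of the inhibitory members was compared over all gated cells, those with no member included. In the tail, Gad2 was found in 47 of 98 Gad1 cells (48.0%, 37.8 to 58.3) and in 16 of 162 cells without Gad1 (9.88%, 5.75 to 15.5). In the brain, Gad2 was found in 140 of 640 Gad1 cells (21.9%, 18.7 to 25.3) and in 187 of 1013 cells without Gad1 (18.5%, 16.1 to 21.0). At full depth the intervals were apart in the tail and overlapped in the brain. The Gad1 cells of the tail were deeper, with a median of 1671 molecules against 1398.5. At 400 molecules per cell the tail shares were 20% (7 of 35 cells) and 7.56%, with intervals (8.44 to 36.9 and 4.46 to 11.8) that overlapped each other and that of the brain. The brain shares were 12.8% (9.62 to 16.6) and 10.97%, so the difference between the libraries was not separable at equal depth. With 2 molecules asked of each gene, the tail shares were 10.4% (5 of 48 cells, 3.47 to 22.7) and 5.19% (11 of 212 cells, 2.62 to 9.09), and these intervals overlapped. The brain shares were then 5.76% (11 of 191 cells, 2.91 to 10.1) and 2.46% (36 of 1462 cells, 1.73 to 3.39), which also overlapped. Inside the Pkd2l1 cells of the tail gate, Gad2 was found in 27 of 54 cells with Gad1 (50%, 36.1 to 63.9) and in 4 of 25 without (16%, 4.54 to 36.1). In tail cells with neither Pkd2l1 nor Robo3, the shares were 45.9% (17 of 37 cells) and 10.1% (10 of 99 cells). The Dlx1 cells of the brain gate had 21.9% and 20.7%, and brain cells without Dlx1 had 21.7% (31 of 143 cells, 15.2 to 29.3) and 13.2% (40 of 304 cells, 9.57 to 17.5).

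Slc32a1 was found in 23.5% of the Gad1 cells of the tail gate and in 9.26% of the cells without Gad1. In the brain it was found in 6.25% and 5.03%. Slc6a5, the glycine carrier gene, never stood alone in a gated tail cell. Of its 15 cells, 7 had Gad1, 7 had Gad2 and 7 had Slc32a1, the last a share of 46.7% against 12.7% in cells without Slc6a5. The commonest sets in the tail gate were Gad1 alone (39 cells), Gad1 with Gad2 (32), Slc17a6 alone (27) and Gad1 with Gad2 and Slc32a1 (12), and 1 cell had all 4 inhibitory members. In the brain gate they were Gad1 alone (465 cells), Gad2 alone (172) and Gad1 with Gad2 (133), and 7 cells had 3 members. A cell without a second member is not shown to lack it, given the depth of these cells.

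The Pkd2l1 cells of the tail were either on the inhibitory side or without a member. Of 93 kept tail cells with Pkd2l1, 63 (67.7%) had Gad1, 40 (43.0%) had Gad2, 18 (19.4%) had Slc32a1 and 3 (3.23%) had Slc6a5. None had Slc17a6, which allows up to 3.23% of cells with a detected molecule. In the gate, Gad1 was found in 54 of 79 Pkd2l1 cells (68.4%, 56.9 to 78.4) and in 44 of 181 cells without Pkd2l1 (24.3%, 18.3 to 31.2). Gad2 was found in 39.2% and 17.7%, and Slc32a1 in 22.8% and 11.05%, with overlapping intervals for Slc32a1. Median molecules were 1738 with and 1384 without Pkd2l1. At least 1 inhibitory member was found in 61 of the 79 (77.2%).

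Pkd2l1 cells made up 61 of the 125 inhibitory-side gated cells of the tail (48.8%), and levels were set beside those of the other 64. Gad1 was at 835 CPM with Pkd2l1 and 876 CPM without (ratio 0.954, 0.704 to 1.30). Gad2 was at 409 and 465 CPM (0.880, 0.571 to 1.36), and Slc32a1 at 196 and 249 CPM (0.789, 0.423 to 1.47). Slc6a5 had 5 molecules in 3 Pkd2l1 cells and 14 molecules in 12 other cells (0.282, 0.0794 to 0.827). Gad1 was found in 88.5% of the Pkd2l1 cells and in 68.75% of the others. Because both sets were required to have an inhibitory member, their levels of these genes are bound to be alike to some degree, and nothing is read from it. Of 715 genes with at least 50 molecules, 1.68% passed the 4-fold rule between the sets, 0.839% in each direction. Toward Pkd2l1, besides Pkd2l1 itself, Rprm (56 against 0 molecules), Gap43 (10.2-fold), Ddc (21.0-fold) and Clic5 (25.6-fold) led. Ddc, the aromatic amino acid decarboxylase, was found in 34 of 61 Pkd2l1 cells. Toward the other inhibitory-side cells Robo3, Nr4a2 (22.0-fold) and Nova1 (11.3-fold) led, beside the globin genes Hba-a1 and Hbb-bs, whose molecules came from 1 cell each.

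Robo3 cells of the tail fell on both sides and never on both at once. Of 64 kept tail cells with Robo3, 21 (32.8%) were glutamate-side, 14 (21.9%) inhibitory-side and 29 (45.3%) had no member, and 0 had both, which allows up to 4.69%. No cell had Pkd2l1 and Robo3 together. In the gate, Slc17a6 was found in 16 of 45 Robo3 cells (35.6%, 21.9 to 51.2) and in 11 of 215 cells without Robo3 (5.12%, 2.58 to 8.97). Gad1 was found in 7 of 45 (15.6%, 6.49 to 29.5) and 91 of 215 (42.3%, 35.6 to 49.2). Robo3 was thus found in 16 of 27 glutamate-side cells (59.3%) and in 9 of 125 inhibitory-side cells (7.20%). Slc6a5 was found in none of the Robo3 cells. In the brain, Robo3 had 0 molecules in 7988 kept cells, and Pkd2l1 had 3 molecules in 3 cells without a member.

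**Figure D3:**
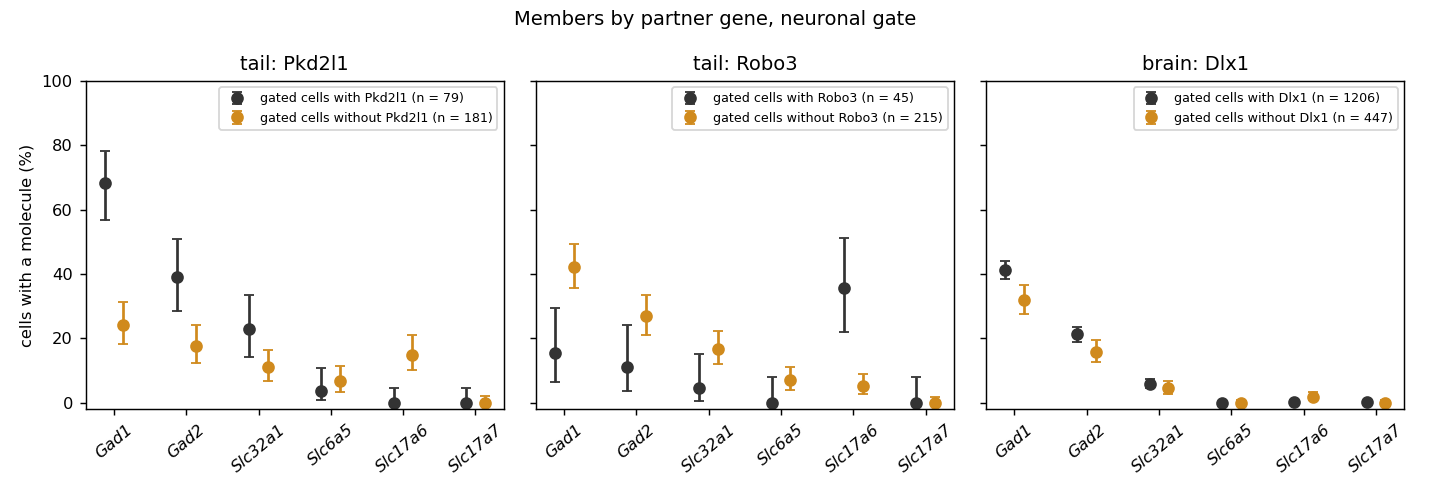
Percentage of gated cells with a molecule of each member, in cells with (black) and without (orange) Pkd2l1 or Robo3 in the tail and Dlx1 in the brain, with exact 95% intervals. Gad1 stands at 68.4% with and 24.3% without Pkd2l1, Slc17a6 at 35.6% with and 5.12% without Robo3, and Gad1 at 41.2% with and 32.0% without Dlx1.

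**Figure D4:**
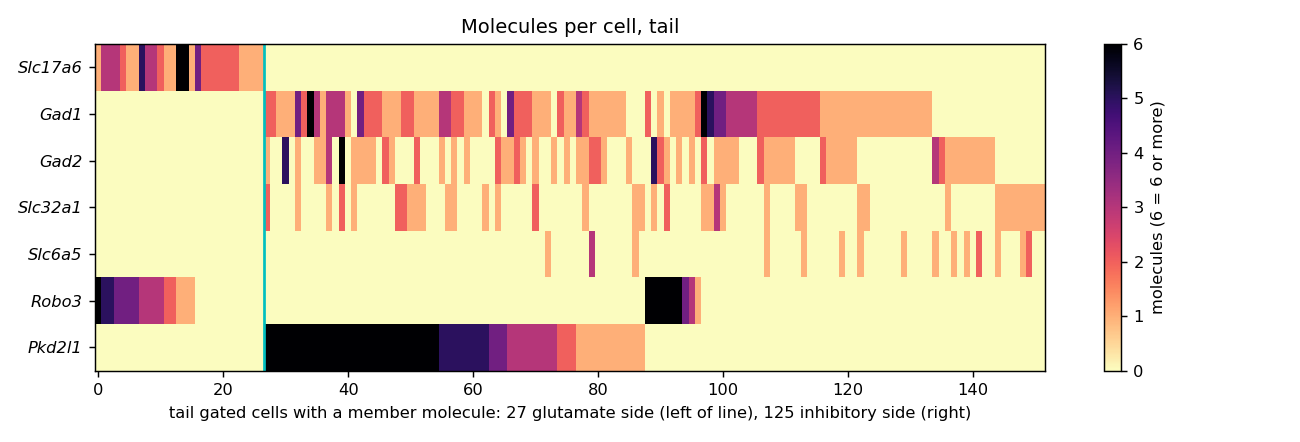
Molecules of 5 members, Robo3 and Pkd2l1 in each of the 152 gated tail cells with a member (columns), with 27 glutamate-side cells left of the line and 125 inhibitory-side cells right of it. Colour gives molecules per cell, and 6 stands for 6 or more. No column has Slc17a6 together with an inhibitory member, and none has Robo3 together with Pkd2l1.

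Dlx1 was the partner gene examined in the brain, where cells were shallower. Of 1206 gated brain cells with Dlx1, 497 (41.2%, 38.4 to 44.0) had Gad1, against 143 of 447 without it (32.0%, 27.7 to 36.5). Gad2 was found in 21.2% and 15.9%, and Slc32a1 in 5.89% and 4.47%, with overlapping intervals for each. Slc17a6 went the other way, with 3 of 1206 Dlx1 cells (0.249%, 0.0513 to 0.725) and 8 of 447 cells without Dlx1 (1.79%, 0.776 to 3.50). Median molecules were 716.5 with and 616 without Dlx1. Of the 861 inhibitory-side cells 669 (77.7%) had Dlx1, as did both double cells and 2 of the 10 glutamate-side cells. Dlx1 was also found in 73.0% of all 1653 gated brain cells and in 68.3% of the 780 with no member. In the tail, Dlx1 was found in 1 kept cell, which was not gated and had no member. Dlx1 was therefore common over the whole brain gate and not particular to its inhibitory side. Pkd2l1 was found in 48.8% of the inhibitory-side gated tail cells and in 16.7% of the gated tail cells with no member.

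The sides of the tail also differed in genes that the members did not define. Of 906 genes with at least 50 molecules, 1.99% passed the 4-fold rule, 5 (0.552%) toward the glutamate side, Slc17a6 among them, and 13 (1.43%) toward the inhibitory side, Gad1 and Gad2 among them. These 3 members define the sides and are no result here. Toward the glutamate side Igfbpl1 (37 against 16 molecules, 12.7-fold, 6.90 to 24.5), Nxph4 (10.996-fold, 6.28 to 19.9), Hoxb8 (8.02-fold, 5.18 to 12.5) and Lmo4 (6.96-fold, 4.202 to 11.6) passed, and Auts2 (5.43-fold, 3.97 to 7.43) came next. Within Robo3 cells, Igfbpl1 was in 10 of 16 glutamate-side and 6 of 9 inhibitory-side cells, and Nxph4 in 12 of 16 and 7 of 9. In these cells both genes were thus common on either side. Without Robo3, Igfbpl1 was in 5 of 11 and Nxph4 in 4 of 11 glutamate-side cells. Each was in 2 of 55 inhibitory-side cells with neither partner gene. Hoxb8 is a positional gene of the trunk, and Lmo4 encodes a LIM-only cofactor of transcription. Toward the inhibitory side Pkd2l1 (0 against 368 molecules), Gap43 (17.7-fold, 8.07 to 48.4), Tal1 (0 against 156) and Gata2 (0 against 106) led, beside Hba-a1, whose 125 molecules came from 1 cell. Of the 583 inhibitory-side Gap43 molecules, 541 were in cells with Pkd2l1. Gap43 was in 19 of 55 inhibitory-side cells with neither partner gene and in 0 of 9 with Robo3.

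Transcription factor genes differed between the sides, some of them through only part of the inhibitory side. Of the inhibitory spinal list, 3 of 4 genes with at least 50 molecules passed toward the inhibitory side. Tal1 was found in 70 inhibitory-side cells, Gata2 in 59 and Gata3 in 47, and each in 0 of 27 glutamate-side cells. Each was also found in 0 of the 9 inhibitory-side cells with Robo3. Gata2 was found in 40 of 61 inhibitory-side cells with Pkd2l1 and in 19 of 55 with neither partner gene. Lhx5 was found in 46 and 0 (68 and 0 molecules, lower bound of the ratio under 4-fold). Pax2, with 37 and 0 molecules, had too few to be counted. Of the excitatory spinal list only Nhlh2 had 50 molecules, at a 5.62-fold higher level on the glutamate side (3.66 to 8.63). Lmx1b had 39 molecules in 16 glutamate-side cells and 1 in the inhibitory-side cells, and Pou4f1 had 23 in 8 cells and 0. Among genes of other transmitters, Ddc had 83 molecules on the inhibitory and 0 on the glutamate side. Of these 83 molecules, 80 were in cells with Pkd2l1. Syt4, a synaptotagmin, was 27.3-fold higher on the inhibitory side and was the only one of 7 release genes to pass.

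The panel genes were then set side by side in the Robo3 cells of each side. All 9 Robo3 cells on the inhibitory side had Nhlh2, 8 had Pax2, 5 had Pax8 and 5 had Lhx5, and none had Lmx1b, Pou4f1, Gata2, Gata3 or Tal1. Of the 16 Robo3 cells on the glutamate side 12 had Nhlh2, 12 had Lmx1b and 7 had Pou4f1, and none had Pax2, Pax8 or Lhx5. Nhlh2 was thus common in the Robo3 cells of both sides, and Neurod1 was found in 4 of the 9 inhibitory-side and 3 of the 16 glutamate-side Robo3 cells. Of the other inhibitory-side cells, Nhlh2 was in 1 of 61 with Pkd2l1 and 4 of 55 with neither partner gene. The 20 gated Robo3 cells with no member held both kinds, with Lmx1b in 9, Pou4f1 in 8 and Pax2 in 4. Pax2 and Pax8 are factors of dorsal inhibitory neurons, and Lmx1b and Pou4f1 of dorsal excitatory ones. The inhibitory-side cells with neither partner gene numbered 55, of which 30 had Tal1, 25 had Lhx5, 15 had Sst and 7 had Pax2. They held 12 of the 15 gated Slc6a5 cells. Of the 18 gated Pkd2l1 cells with no member, 11 had Gata2, 7 had Tal1 and 7 had Ddc. These cell groups are small, and the factors were chosen with the sides known.

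**Figure D5:**
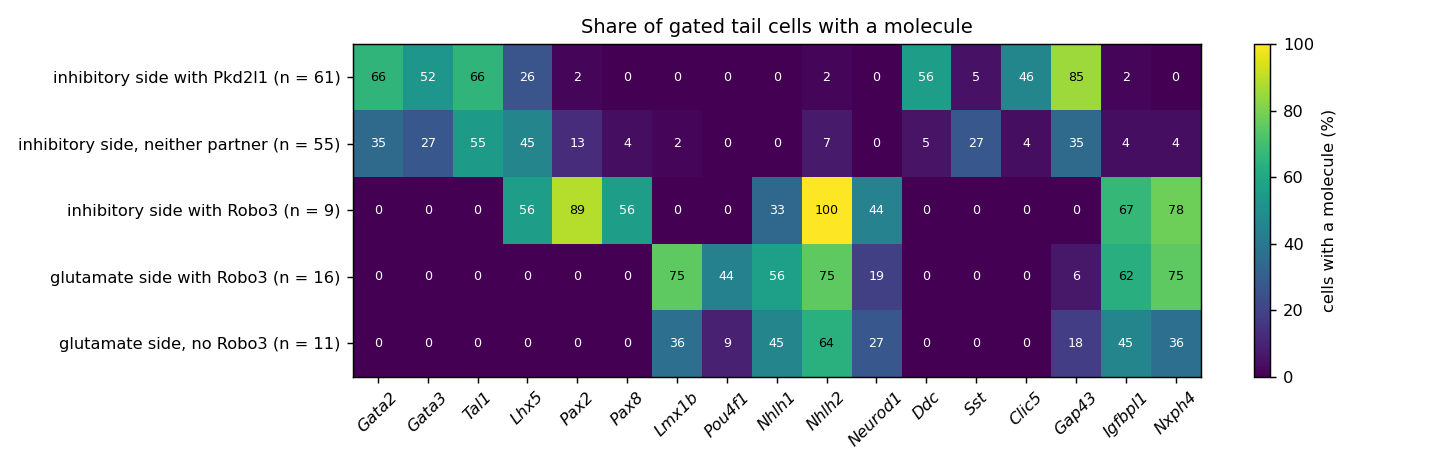
Percentage of gated tail cells with a molecule of each gene (columns) in 5 sets of cells that do not overlap (rows, with their number of cells). Of the rows shown, only the inhibitory-side rows without Robo3 have Gata2, Gata3, Tal1 or Ddc. Pax2 is at 89% of the 9 inhibitory-side cells with Robo3, and Lmx1b at 75% of the 16 glutamate-side cells with Robo3. Gated cells with no member are not shown. Among the 70 of them with neither partner gene, Ddc was in 10, and Gata2, Gata3 and Tal1 in 6 each.

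The brain had too few glutamate-side cells for such a comparison. Of 2729 genes, 0.0366% passed, which was Ttc28 alone (10 against 75 molecules, 9.33-fold, 4.30 to 18.1, in 5 of 10 cells). Eomes, a factor of young glutamatergic cells of the forebrain, was found in 7 of the 10 glutamate-side cells and in 4 of 861 inhibitory-side cells. Lhx2 was found in 5 and 16, and Neurod1 in 5 and 0. Of the list of 8 forebrain glutamatergic factors only 2 had 50 molecules, neither Eomes nor Neurod1 among them. The median ratio of these 2 was 0.347, lower on the glutamate side, and both intervals included 1. Summed over the whole list, the glutamate side had 29 molecules against 248, an 8.19-fold higher level (5.37 to 12.1). Toward the inhibitory side Ccnd2 (8.15-fold, 3.49 to 25.1) and Dlx6os1 (0 against 770 molecules) were among the leading genes without passing.

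By the list of forebrain GABAergic factors, 7 of 10 tested genes were past 4-fold toward the brain in gated cells, against 1.91% of all tested genes, Dlx1 (0 against 2921 molecules) and Dlx2 (0 against 1076) among them. By the list of spinal inhibitory factors, 4 of 5 were past it toward the tail, against 2.3% of all, with Gata2 at 137 against 0 molecules and Tal1 at 177 against 1. The list of spinal excitatory factors had 3 of 4 past it toward the tail and 1 toward the brain, so this was not particular to inhibitory factors. The lists were chosen with earlier results of these data known, so these counts are descriptive only. Of 7 tested genes of other transmitters, Ddc was higher in the tail (98.3-fold), and the GABA carrier gene Slc6a11 (40.6-fold) and the glycine carrier gene Slc6a9 (23.8-fold) were higher in the brain. Slc6a11 and Slc6a9 are also genes of astroglia, and the astroglial marker sum was 277 CPM among gated tail cells against 3582 CPM among gated brain cells. Their part in this result was not tested. Of 14 tested genes of vesicle release, Syt4 (8.77-fold) and Rab3c (6.36-fold) were past 4-fold toward the tail, and the median ratio was 2.09 against 0.991 over all tested genes. The sum over release genes was 2606 CPM for tail and 1122 CPM for brain cells. Cycling markers summed to 104 and 1659 CPM, and their part was not tested either.

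The genes most like a member, by the ratio of CPM in cells with it to cells without it in the gate, are given for each library. For Gad1 in the tail (98 and 162 cells) they were Clic5 (9.001-fold), Gap43 (5.52-fold) and Tal1 (6.14-fold). Clic5 was in 28 of 61 inhibitory-side cells with Pkd2l1, 2 of 55 with neither partner gene and 0 of 9 with Robo3. Gap43 was in 52, 19 and 0 of these cells, but Gad1 in 54, 37 and 7. Clic5 and Gap43 thus followed the Pkd2l1 cells more than Gad1 did. For Gad2 in the tail they were Snhg11 (3.998-fold), Dok5 (4.95-fold) and Grm4 (6.74-fold). For Gad1 in the brain they were Rgs2, Asap1 and Slain1, at 1.98-fold, 1.88-fold and 1.95-fold, and for Gad2 in the brain Zfp106 (2.23-fold), Pax6 (1.75-fold) and Raph1 (1.94-fold). For Slc32a1 in the brain (91 cells) Sirt2 and Gmeb1 were among them, at 2.59-fold and 2.69-fold. They were ranked by the lower bound of the ratio over 5439 tail and 2950 brain genes, so the first of each ranking is the highest of many, and no test was made.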

How the data were processed

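Cells sorted for Sox1-GFP were captured on the BD Rhapsody system, and a whole-transcriptome library was sequenced for each tissue. The deposited files hold molecule counts per cell and gene, which the authors made with the Rhapsody pipeline (version 1.10.1 in the file headers, on GRCm38 with GENCODE vM19) and corrected with its RSEC step for sequencing errors in molecular identifiers. The submitters' processing notes name UMI-tools 1.0.1, STAR 2.7.1a, featureCounts 1.6.4 and mm10, with no role given. The corrected counts were used as deposited. A barcode was kept if it held over 200 but below 4000 genes and its mitochondrial share was below 40%, which left total counts of 2817103 in the tail and 6424466 in the brain.

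With 1 library per group no test was made. Shares carry exact Clopper-Pearson 95% intervals, and ratios of molecules per 1000000 (CPM) carry exact conditional binomial intervals. A count of 0 was bounded by 3 molecules. The limit given for a share of 0 cells is 3 cells over the number of cells, and not the exact upper bound. Molecules counted as distinct may still share a cell, so these intervals cover counting error only. A ratio passed the 4-fold rule where its genes had at least 50 molecules over both sides and the whole interval lay beyond 4-fold, mitochondrial genes aside. For equal depth each cell was drawn once to 400 molecules, which left out 131 gated brain cells (7.92%) and 0 gated tail cells. Cells were gated at full depth, before this draw. Doublets were scored with Scrublet in scanpy 1.11.5, which marked 5 tail cells (0.255%) and 93 brain cells (1.16%), and these were kept in the results. The named genes were the members, the partner genes, the 5 leading genes in each direction of a comparison, the 3 genes most like a member, and genes of the lists. Some genes that this rule names are not reported here. Other genes of the marker panel were named after their values were seen. The members and lists were chosen with earlier results of these data known. Windows before RefSeq starts were searched on both strands. Python 3.11.15, numpy 2.4.6, scipy 1.17.1, pandas 2.3.3, matplotlib 3.10.9, R 4.3.3 and edgeR 4.0.16 (for TMM factors only) were used, and the scripts were tested on simulated data.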

Additional observations from a re-analysis of the deposited data

Results flagged for a closer look

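Slc17a7, the VGLUT1 gene, had 64 of its 71 brain molecules (90.1%) in barcodes that failed the cell filter, a signal outside the cells that the comparisons used. These 64 molecules lay in 54 of 4123 failed brain barcodes, of which 52 had at least 40% mitochondrial molecules and 34 had 200 genes or fewer. The 54 barcodes had a median of 132.5 genes and 62.9% mitochondrial molecules. Slc17a7 was at 61.7 CPM in failed and 1.09 CPM in kept brain barcodes, whereas Gad1 was at 37.6 and 161 CPM. Snap25, a synaptic gene, was found in 10 of the 54, a gate gene in 3, at least 3 astroglial markers in 17 and an inhibitory member in 2. The 505 failed tail barcodes had no Slc17a7 molecule.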

How the results depend on the processing

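Over the alternatives tried, 349 values stayed within the counting interval of the main result, 67 moved beyond it and 1 reversed. The cause was not tested. Gene counts and lower limits, which have no such interval, were judged by a set fold instead. With cells that had both Stmn2 and Tubb3, the Gad2 ratio of tail over brain reversed to 1.02, the Gad1 ratio was 0.874, Slc17a6 5.68, Slc6a5 at least 6.62, and 124 genes passed 4-fold. The inhibitory side was then 68.5% in the tail and 56.6% in the brain, the glutamate side 6.74% in the tail, and Gad1 was in 85.1% of Pkd2l1 cells. With at least 3 gate molecules, the Gad1 ratio was 0.824, Slc6a5 at least 4.26, and 137 genes passed. The inhibitory side was 61.5% and 57.8%, Gad1 was in 83.0% of Pkd2l1, 4.35% of Robo3 and 46.4% of Dlx1 cells, and Gad2 in 25.6% of brain Gad1 cells.

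With 2 molecules asked of a gene, the inhibitory side was 24.6% in the tail and 14.2% in the brain, the glutamate side 6.54% and 0.121%, and brain cells with both 0%. Gad1 was then in 39.7% of Pkd2l1, 2.78% of Robo3 and 13.6% of Dlx1 cells, and Slc17a6 in 0% of Dlx1 cells. Gad2 was in 10.4% of tail and 5.76% of brain Gad1 cells, and Slc32a1 in 8.33% and 0%. Without drawing to equal depth, Gad1 was in 37.7% and 38.7%, Gad2 in 24.2% and 19.8%, Slc32a1 in 14.6% and 5.51%, and Slc17a6 in 10.4% of gated tail cells.

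Over all kept cells the Gad1 ratio was 0.388 with TMM, 0.393 with median-ratio factors, 0.407 as a mean over cells and 0.419 under 20% mitochondrial molecules. The Gad2 ratio was 0.488 with TMM and 0.494 with median-ratio factors. These factors shifted all log2 ratios of kept cells by 0.39 and 0.37, and those of gated cells by 0.15 and 0.14. In the gate, the Gad1 ratio was 0.55 as a mean over cells. With more than 500 genes per cell it was 0.873, Gad1 was in 20.1% of brain cells at equal depth, and Slc6a5 was at least 9.68 over kept cells. A minimum of 200 molecules left 85 genes past 4-fold and no minimum gave 482. Leaving out cells with 3 markers of another class, an alternative added after seeing the data, put Gad1 in 28.0% of brain cells at equal depth. No paired analysis was possible because each group was 1 library without a shared replicate number, and for the same reason no library could be left out. The depth limits statements that a cell lacks a member.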

Other observations

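Sox1, the reporter's own gene, was found in 77 of 219 kept tail cells with a member (35.2%) and in 152 of 1048 such brain cells (14.5%), against 9.78% and 8.45% of all kept cells. Among ungated cells with at least 3 neuronal markers, a member was found in 49 of 110 tail cells (44.5%) and in 80 of 221 brain cells (36.2%).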
